A study of Mus musculus with 10 samples.

Results

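Mitochondrial fatty acid oxidation was followed through 10 genes in mouse peritoneum: Cpt1a, Cpt1b, Cpt2, Acadm, Acadl, Acadvl, Hadha, Hadhb, Decr1 and Echs1. They were taken by name from the 21877 gene symbols of the count table and followed in all 10 libraries. The mice were male C57BL/6 animals, either lacking Mr1 (Mr1-/-) or with the gene intact (Mr1+/+), and every group received injections into the peritoneal cavity over 6 weeks. The injected fluid was 4.25% peritoneal dialysis (PD) fluid, a glucose-rich solution, or PBS. Mr1 displays vitamin B derivatives of microbes to mucosal-associated invariant T cells. The 4 groups were Mr1-/- PD fluid (2 libraries), Mr1-/- PBS (2 libraries), Mr1+/+ PD fluid (3 libraries) and Mr1+/+ PBS (3 libraries). The sources used here do not say how the Mr1-/- line was made, how old the mice were or whether animals were pooled.

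Fatty acid oxidation shortens fatty acids inside mitochondria and feeds the resulting acetyl-CoA to the citrate cycle. Long-chain acyl groups enter through the carnitine shuttle, in which CPT1 on the outer membrane loads them onto carnitine and CPT2 on the inner membrane returns them to CoA. Each cycle then runs through an acyl-CoA dehydrogenase, a hydratase, a second dehydrogenase and a thiolase, and unsaturated fatty acids need auxiliary enzymes such as DECR1. Several of these genes are known targets of the PPAR nuclear receptors, and fat cells, muscle and liver all express the pathway.

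Libraries held 14145635 to 16335799 counts each. Measured as chi-square divided by the number of genes, replicates 1 and 2 differed by 1.74 in Mr1-/- PD fluid and by 2.23 in Mr1+/+ PBS, and the 6 remaining within-group pairs by 18.6 to 118. Each of these near-identical pairs was summed and counted as 1 sample, which left 1 sample of Mr1-/- PD fluid, 2 of Mr1-/- PBS, 3 of Mr1+/+ PD fluid and 2 of Mr1+/+ PBS. Every test assumes for the single Mr1-/- PD fluid sample the spread of the remaining groups. The labels do not tie libraries to animals, so the p-values reflect sample-to-sample spread that may be technical. Mr1 itself was at 1.96 to 2.45 CPM (read counts scaled to library size by TMM) in the 3 Mr1-/- samples and 21.0 to 32.5 CPM in the 5 Mr1+/+ samples. An exact permutation test, two-sided, of the mean log2 difference of -3.34 gave p = 0.0179, the smallest value that its 56 splits allow. The sum of 19 adipocyte markers was 7910 to 32206 CPM. That of 8 markers of mesothelium, which lines the peritoneum, was 61.9 to 425 CPM in 7 of the samples. These sums cover different genes and do not measure shares of cells. In the eighth sample, Mr1+/+ PBS replicate 3, the mesothelial markers summed to 998 CPM. Of this, Krt8 gave 584 CPM and Krt19 gave 341 CPM, keratin genes that gut epithelium also expresses. That sample also carried intestinal epithelial markers at 2207 CPM, against 24.4 to 35.8 CPM in the other 7 samples. Pancreatic acinar markers were present in every sample. Their 8 genes summed to 5126 CPM in Mr1-/- PD fluid, 649 and 266 CPM in Mr1-/- PBS, 140.1, 3169.9 and 3763 CPM in Mr1+/+ PD fluid, and 486 CPM in the summed pair and 25421 CPM in replicate 3 of Mr1+/+ PBS. The part of pancreatic transcripts in the results was not tested.

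Promoter sequences, 250 bases before to 50 after the annotated start, were taken from RefSeq (GRCm38.p6) and matched 8 of the 10 genes, all but Cpt1b and Decr1. These windows are printed because their genes stand for the different patterns described below: Cpt1a, which did not move with the others, Acadm and Echs1, which were among the genes with the clearest rise, and the stretch common to Hadha and Hadhb. Capitals mark GGGCGG (the GC box), AGGTCA (a core site of nuclear receptors) and CCAAT (the CCAAT box) on either strand.
Cpt1a, chr19:3323051-3323350, plus strand: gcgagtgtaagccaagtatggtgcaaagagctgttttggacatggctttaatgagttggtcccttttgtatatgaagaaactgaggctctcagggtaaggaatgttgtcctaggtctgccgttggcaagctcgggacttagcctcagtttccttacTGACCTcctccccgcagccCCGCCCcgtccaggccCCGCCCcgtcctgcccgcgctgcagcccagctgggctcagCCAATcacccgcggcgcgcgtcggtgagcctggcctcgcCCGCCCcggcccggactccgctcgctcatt
Acadm, chr3:153944594-153944893, minus strand: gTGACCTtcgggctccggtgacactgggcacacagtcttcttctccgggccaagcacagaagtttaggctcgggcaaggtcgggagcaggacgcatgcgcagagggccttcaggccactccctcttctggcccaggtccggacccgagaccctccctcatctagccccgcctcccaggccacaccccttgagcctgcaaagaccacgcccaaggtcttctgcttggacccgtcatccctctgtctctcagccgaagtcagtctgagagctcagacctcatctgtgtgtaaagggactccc
Echs1, chr7:140116372-140116671, minus strand: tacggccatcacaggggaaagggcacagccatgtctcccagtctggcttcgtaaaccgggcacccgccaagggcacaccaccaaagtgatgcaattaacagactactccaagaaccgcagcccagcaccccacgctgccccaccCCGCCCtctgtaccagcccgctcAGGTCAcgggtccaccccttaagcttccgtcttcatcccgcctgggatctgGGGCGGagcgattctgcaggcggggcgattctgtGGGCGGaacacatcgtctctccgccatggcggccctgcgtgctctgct
Hadha and Hadhb, shared stretch, chr5:30155003-30155230, plus strand: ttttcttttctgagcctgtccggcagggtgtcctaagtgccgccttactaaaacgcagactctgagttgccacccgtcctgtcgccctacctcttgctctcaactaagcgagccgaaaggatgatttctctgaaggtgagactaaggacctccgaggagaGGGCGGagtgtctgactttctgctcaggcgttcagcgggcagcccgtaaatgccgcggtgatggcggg
Hadha and Hadhb lie head to head on chromosome 5, with 85 bases between their ends in GENCODE M21, and their RefSeq promoter windows share 228 bases. The starts of these sources differ. Part of the shared stretch lies inside the GENCODE M21 span of Hadha, and the Cpt1a window lies inside that of Cpt1a. GGGCGG was present in the windows of 6 of the 8 genes (Cpt1a, Cpt2, Acadl, Hadha, Hadhb and Echs1), and in 35.7% of all 32851 promoters. The only GGGCGG of the Hadha window lies in the shared stretch, so that site belongs to the Hadhb window as well. AGGTCA was present in 4 of the 8 (Cpt1a, Acadm, Acadvl and Echs1), and in 16.3% of all promoters. CCAAT was in 1 of the 8, that of Cpt1a, and in 37.4% of all promoters. The longer estrogen-related receptor element TCAAGGTCA, which contains that core site, was in 0 of the 8 and in 0.423% of all promoters. The TATA box, TATAAA, was likewise in 0 of the 8 and in 13.6% of all promoters. These are matches of letters on either strand within the windows.

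PD fluid against PBS in Mr1+/+ mice gave the clearest difference. Decr1, Acadm, Echs1, Acadl, Cpt2 and Hadhb rose, by 1.72-fold to 2.75-fold, while Acadvl and Hadha did not pass the test and Cpt1a, at the entry of the pathway, lay below PBS without passing it. Of the 9 genes tested, 6 were called higher and 0 lower at an adjusted p under 0.05 (edgeR quasi-likelihood test, Benjamini-Hochberg over 15385 genes), against 8.49% of all tested genes called higher and 6.37% called lower. Their median log2 fold change was 0.90, and that of all tested genes was -0.06. Cpt1b was filtered out for low counts. In bulk tissue, fewer cells of a type and less RNA per cell cannot be told apart.

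**Figure D1:**
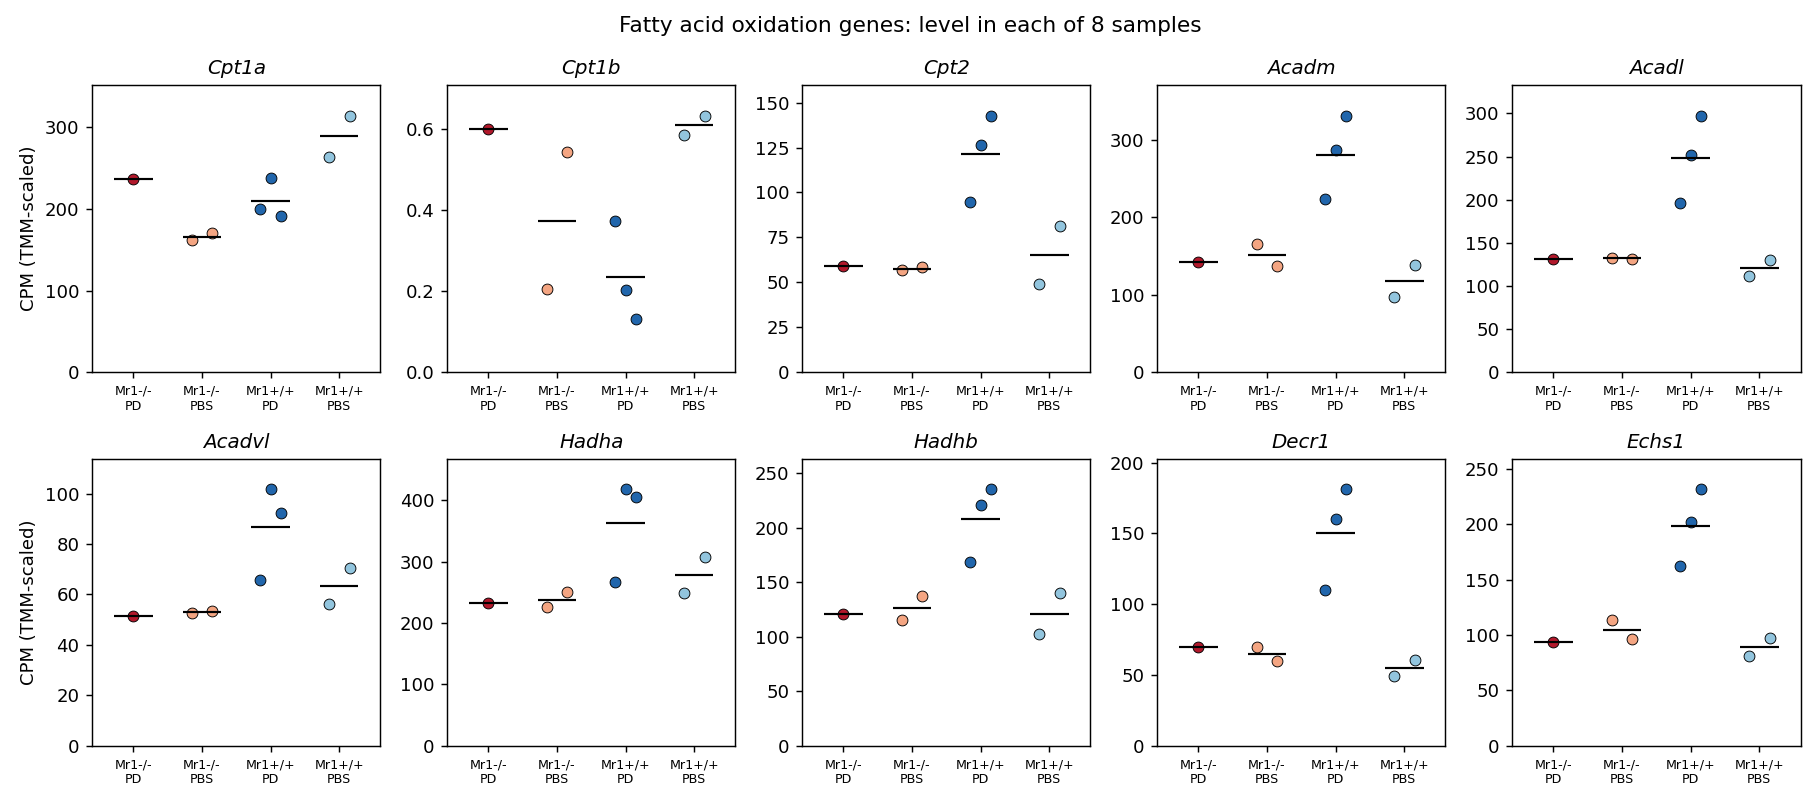
Level of each of the 10 genes (y axis, TMM-scaled CPM, from 0) in each of the 8 samples (points) by group (x axis), with the group mean as a bar. The 3 Mr1+/+ PD fluid samples lie above both Mr1+/+ PBS samples for Cpt2, Acadm, Acadl, Hadhb, Decr1 and Echs1, and below both for Cpt1a.

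Of the carnitine shuttle genes, Cpt2 rose with PD fluid in Mr1+/+ mice and Cpt1a had a negative fold change that missed the test. Cpt1a (ENSMUSG00000024900.5; mm10 chromosome 19, 3322334 to 3385733, plus strand), the widely expressed CPT1 form found in liver, had 199.95, 238 and 191 CPM in Mr1+/+ PD fluid samples, against 264 and 314 CPM in Mr1+/+ PBS samples. All 3 PD fluid samples were below both PBS samples, a log2 fold change of -0.46 (SE 0.15), with an edgeR adjusted p of 0.0754 (unadjusted 0.0162). In Mr1-/- it had 237 CPM in the PD fluid sample and 162 and 170.3 CPM in PBS samples, so the order was the opposite one there. Cpt2 (ENSMUSG00000028607.16; chromosome 4, 107903981 to 107923610, minus strand) had 94.5, 126 and 143 CPM in Mr1+/+ PD fluid, against 49.3 and 81.1 CPM in Mr1+/+ PBS. The ranges did not overlap and Cpt2 rose by a log2 fold change of 0.90 (SE 0.25, edgeR adjusted p = 0.0477). In Mr1-/- its levels were 59.2 CPM with PD fluid and 56.8 and 58.3 CPM with PBS, which all lie between the Mr1+/+ PBS samples. The ratio of Cpt1a to Cpt2 CPM was 2.12, 1.88 and 1.34 in Mr1+/+ PD fluid and 5.36 and 3.88 in Mr1+/+ PBS, without overlap. It was 4.0 in the Mr1-/- PD fluid sample and 2.85 and 2.92 in the Mr1-/- PBS samples. The difference between the fold changes of these genes was not tested.

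Cpt1b (ENSMUSG00000078937.8; chromosome 15, 89416405 to 89425863, minus strand), the CPT1 form of muscle and brown fat, was close to the floor of detection. It had 0.600 CPM in Mr1-/- PD fluid, 0.204 and 0.541 CPM in Mr1-/- PBS, 0.372, 0.201 and 0.130 CPM in Mr1+/+ PD fluid, and 0.584 and 0.632 CPM in Mr1+/+ PBS, from 2 to 14 counts per library. Fitted without a filter on low counts, its log2 fold change with PD fluid in Mr1+/+ was -1.35 (SE 0.83, edgeR adjusted p = 0.316), so a difference was not detectable at this depth. The level carries a further limit: 2744 of the 3372 exon bases of Cpt1b in GENCODE M21 also belong to the overlapping gene model Gm44502 on the same strand. Gm44502 was listed at 0 in every library, and how the counting treated reads shared by overlapping genes is not stated in the labels or files. Skeletal muscle, a tissue rich in Cpt1b, was represented by 19 markers that summed to 47.7 to 80.0 CPM over all samples. Of these markers 1, the fast myosin gene Myh4, was at 0 counts in all samples. Others were present, such as Ttn at 5.44 to 35.8 CPM and Acta1 at 6.50 to 19.4 CPM. Ucp1, the uncoupling protein that defines brown fat, had 3 counts over all libraries.

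The acyl-CoA dehydrogenases carry out the first step of each cycle and divide the work by chain length. Acadm (ENSMUSG00000062908.12; chromosome 3, 153922357 to 153944632, minus strand), for medium chains, had 224, 287 and 332 CPM in Mr1+/+ PD fluid, against 97.2 and 139 CPM in Mr1+/+ PBS. Acadl (ENSMUSG00000026003.5; chromosome 1, 66830839 to 66863277, minus strand), for long chains, had 196, 252 and 297 CPM in Mr1+/+ PD fluid, against 112 and 130.1 CPM in Mr1+/+ PBS. For both genes every PD fluid sample exceeded every PBS sample. Acadm rose by 1.25 on the log2 scale (SE 0.23, edgeR adjusted p = 0.0169) and Acadl by 1.04 (SE 0.19, edgeR adjusted p = 0.0174). Acadvl (ENSMUSG00000018574.14; chromosome 11, 70010183 to 70015411, minus strand), for very long chains, had 65.8, 102 and 92.4 CPM in Mr1+/+ PD fluid, against 56.3 and 70.4 CPM in Mr1+/+ PBS. These ranges overlapped, and the log2 fold change of 0.45 (SE 0.20) had an edgeR adjusted p of 0.155. Acadvl also shares 1151 exon bases with Dvl2 on the opposite strand, and the labels name no step that marks the strand. Dvl2 had 448 to 683 counts per library and a log2 fold change of -0.23 (SE 0.17) in the same comparison.

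In Mr1-/- samples the dehydrogenases were nearly level. Acadm had 143 CPM with PD fluid and 166 and 138 CPM with PBS. Acadl had 131 CPM with PD fluid and 132 and 132 CPM with PBS. Acadvl had 51.6 CPM with PD fluid and 52.8 and 53.4 CPM with PBS. The PD fluid sample lay between the PBS samples for Acadm and just below both for Acadl and Acadvl.

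The mitochondrial trifunctional protein handles the later steps for long chains. Its alpha subunit, Hadha (ENSMUSG00000025745.12; chromosome 5, 30118304 to 30155162, minus strand), holds the hydratase and second dehydrogenase, and its beta subunit, Hadhb (ENSMUSG00000059447.13; chromosome 5, 30155248 to 30184593, plus strand), the thiolase. Hadha had 267, 418 and 405 CPM in Mr1+/+ PD fluid, against 249.7 and 308 CPM in Mr1+/+ PBS. Hadhb had 169, 221 and 235 CPM in Mr1+/+ PD fluid, against 103 and 139.7 CPM in Mr1+/+ PBS. The PD fluid range of Hadha overlapped that of PBS, because replicate 1 lay below the higher PBS sample, whereas the ranges of Hadhb did not overlap. Hadhb rose by 0.78 on the log2 scale (SE 0.20, edgeR adjusted p = 0.0397), and Hadha had a log2 fold change of 0.38 (SE 0.22, edgeR adjusted p = 0.252). The ratio of Hadha to Hadhb CPM, from the pair that shares the printed promoter stretch, was 1.58, 1.89 and 1.72 in Mr1+/+ PD fluid and 2.43 and 2.21 in Mr1+/+ PBS. In Mr1-/- that ratio was 1.92 with PD fluid and 1.96 and 1.82 with PBS, within or just above the Mr1+/+ PD fluid range. The difference between the subunits' fold changes was not tested. Hadha had 233 CPM in the Mr1-/- PD fluid sample and 226 and 250.5 CPM in Mr1-/- PBS. Hadhb had 121 CPM in the Mr1-/- PD fluid sample and 115 and 138 CPM in Mr1-/- PBS, and for both subunits the PD fluid sample lay between the PBS samples.

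**Figure D2:**
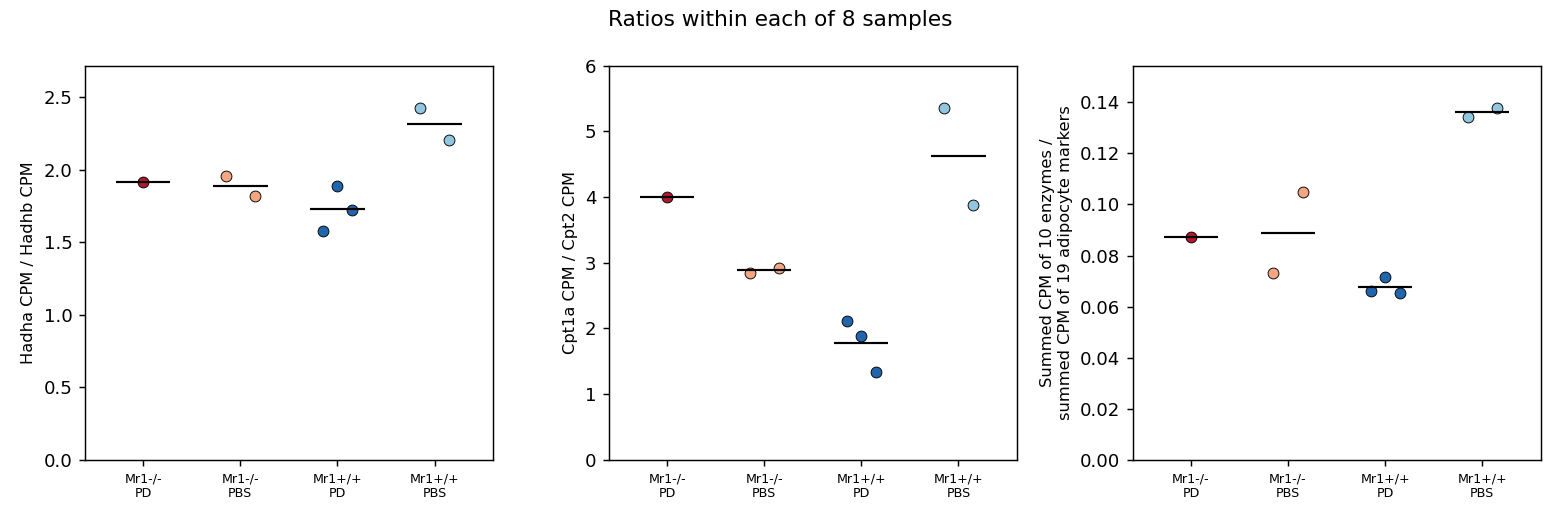
Ratios within each of the 8 samples (points, with group means as bars; all y axes start at 0): Hadha over Hadhb, Cpt1a over Cpt2, and the summed CPM of the 10 genes over that of 19 adipocyte markers. In Mr1+/+ all 3 ratios were lower in each PD fluid sample than in each PBS sample, and Cpt1a over Cpt2 was 1.34 to 2.12 against 3.88 to 5.36.

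Decr1 and Echs1 had the smallest p-values of the 9 tested genes in Mr1+/+. Echs1 (ENSMUSG00000025465.13; chromosome 7, 140105710 to 140116476, minus strand), the matrix hydratase for short chains, had 162, 202 and 231 CPM in Mr1+/+ PD fluid, against 81.1 and 97.2 CPM in Mr1+/+ PBS. Decr1 (ENSMUSG00000028223.8; chromosome 4, 15917240 to 15945507, minus strand), the dienoyl-CoA reductase needed for polyunsaturated fatty acids, had 109.7, 160.5 and 181 CPM in Mr1+/+ PD fluid, against 49.1 and 60.5 CPM in Mr1+/+ PBS. Every PD fluid sample of both genes was above every PBS sample. Echs1 rose by 1.16 on the log2 scale (SE 0.19, edgeR adjusted p = 0.0130) and Decr1 by 1.46 (SE 0.23, edgeR adjusted p = 0.0124). Echs1 shares 142 exon bases with Paox on the opposite strand, which had 296 to 504 counts per library and a log2 fold change of 0.55 (SE 0.15, edgeR adjusted p = 0.0420). In Mr1-/- Echs1 had 93.4 CPM with PD fluid and 114 and 96.5 CPM with PBS. Decr1 had 69.5 CPM with PD fluid and 69.8 and 59.9 CPM with PBS in Mr1-/-. The PD fluid sample was below both PBS samples for Echs1 and between them for Decr1.

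The number of genes called depended on single libraries. Without Mr1+/+ PD fluid replicate 3, edgeR called 0 of the 9 genes and 0% of all tested genes, with adjusted p from 0.0576 for Decr1 to 0.142 for Cpt2 among the 6 called before. The log2 fold changes in that fit were 1.29 for Decr1, 1.11 for Acadm, 1.03 for Echs1, 0.88 for Acadl, 0.76 for Cpt2 and 0.68 for Hadhb. Without Mr1+/+ PD fluid replicate 2 it called 1, Decr1, and 2.21% of all tested genes. The 5 genes that lost their call there had log2 fold changes of 1.26 for Acadm, 1.16 for Echs1, 1.05 for Acadl, 0.89 for Cpt2 and 0.76 for Hadhb. Without the summed Mr1+/+ PBS replicates 1 and 2 it called 4, losing Cpt2 and Hadhb, and 9.93% of all tested genes. That fit compares PD fluid with 1 Mr1+/+ PBS sample, replicate 3, which is assumed to vary like the remaining groups. Cpt2 also lost its call without either Mr1-/- PBS replicate (adjusted p = 0.0673 and 0.0665). Acadvl passed without Mr1+/+ PD fluid replicate 1 (log2 fold change 0.62, adjusted p = 0.0475). Mr1+/+ PBS replicate 3 had the highest pancreatic and intestinal sums. Leaving it out compares PD fluid with 1 Mr1+/+ PBS sample, the summed pair, likewise assumed to vary like the remaining groups. The log2 fold changes of that fit are included in the ranges given next. Over all fits without a library or the summed pair, the log2 fold change was 1.29 to 1.64 for Decr1, 1.03 to 1.53 for Acadm and 0.88 to 1.18 for Acadl. It was 0.60 to 1.30 for Cpt2 and 0.59 to 1.02 for Hadhb, and Echs1 lay at 1.03 to 1.29. The sign of each of the 9 fold changes was kept in all of these fits. Cpt1a passed as lower with the 10 libraries as separate samples (adjusted p = 0.0181) and with DESeq2 (adjusted p = 0.0188), fits that called 37.5% and 24.6% of all tested genes.

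Sample ranges in Mr1+/+ did not overlap for 7 of the 9 genes, 6 with PD fluid above and 1, Cpt1a, below. Over all tested genes the ranges were apart in 25.0% with PD fluid above and 25.6% with it below. At an unadjusted p under 0.05 there were 7 of the 9, against 34.1% of all tested genes.

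PD fluid against PBS in Mr1-/- mice gave no call. EdgeR called 0 of the 9 genes (0% of all tested genes), DESeq2 called 0, and 1 of the 9, Cpt1a, had an unadjusted p under 0.05, against 1.50% of all tested genes. The log2 fold change of Cpt1a was 0.51 (SE 0.21, unadjusted p = 0.0359, edgeR adjusted p = 1), with 237 CPM in the PD fluid sample above both PBS samples. The other 8 fold changes ran from -0.17 for Echs1 to 0.10 for Decr1, and the 95% intervals of all 9 lay between -0.77 and 0.98. With 1 sample of Mr1-/- PD fluid, the upper bounds were 0.79 for Cpt2, 0.59 for Acadm, 0.56 for Acadl, 0.55 for Hadhb, 0.77 for Decr1 and 0.40 for Echs1.

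**Figure D3:**
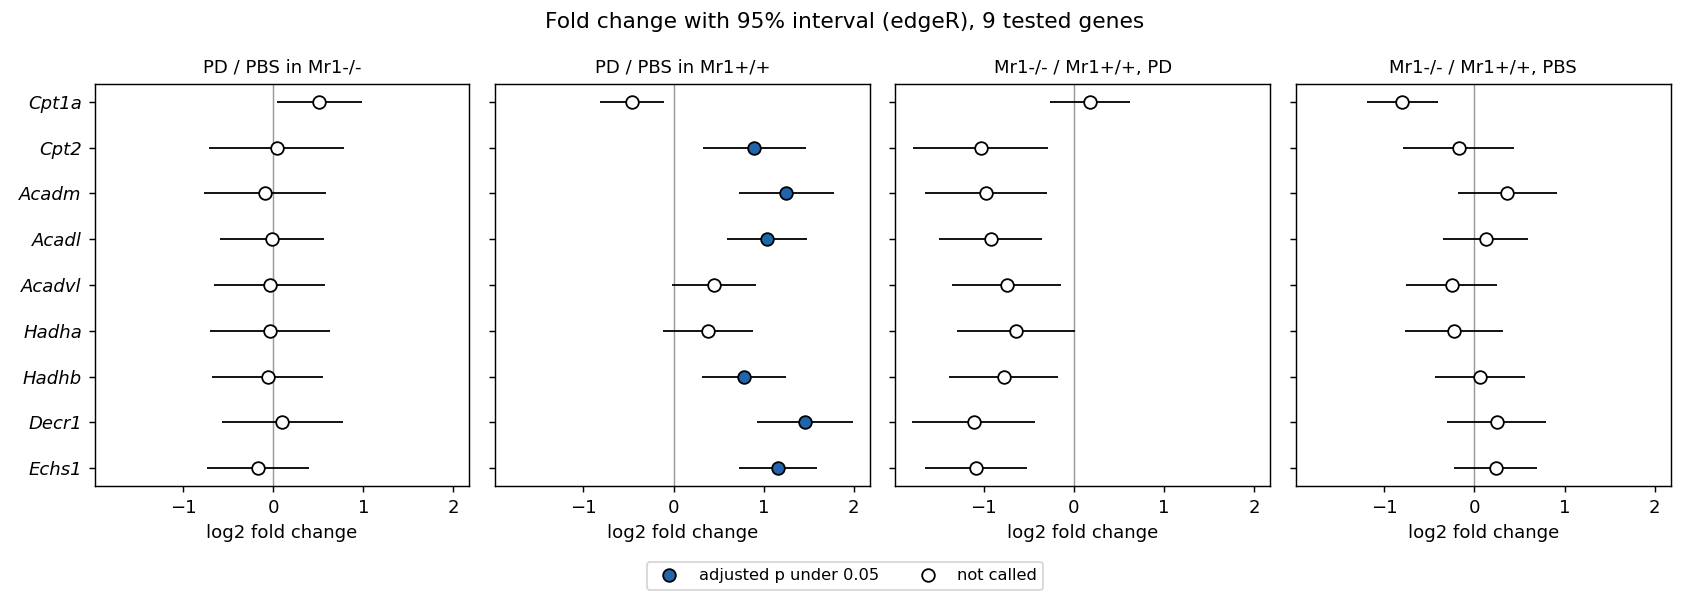
Log2 fold change (x axis, points) with its 95% interval (lines) for the 9 tested genes (rows) in the comparisons of PD fluid with PBS within each genotype and of Mr1-/- with Mr1+/+ under each fluid. Filled points, at an edgeR adjusted p under 0.05, occur for 6 genes in Mr1+/+ mice given PD fluid and nowhere else.

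The difference between those responses was tested directly as the genotype by PD fluid interaction. EdgeR called 0 of the 9 genes (0% of all tested genes), with a smallest adjusted p of 0.269. At an unadjusted p under 0.05 there were 6 of 9, against 13.2% of all tested genes. Among these, the log2 response in Mr1-/- minus that in Mr1+/+ was -1.36 (SE 0.38) for Decr1, -1.34 (SE 0.38) for Acadm, -1.32 (SE 0.32) for Echs1, -1.05 (SE 0.32) for Acadl and -0.84 (SE 0.34) for Hadhb. For Cpt1a it was 0.98 (SE 0.26, unadjusted p = 0.00484, edgeR adjusted p = 0.272). With the 10 libraries as separate samples 6 were called, against 10.1% of all tested genes, and with DESeq2 5, against 3.63% of the genes to which it gave an adjusted p. The 10-library fit treats each near-identical pair as independent samples.

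Under PD fluid, Mr1-/- against Mr1+/+, edgeR called 0 of the 9 genes (0.0130% of all tested genes), with a smallest adjusted p of 0.145 for Echs1. The Mr1-/- sample was below all 3 Mr1+/+ samples for 8 genes, with Cpt1a the exception, and 33.9% of all tested genes had the Mr1-/- sample below without overlap. The log2 fold changes of these 8 ran from -1.11 (SE 0.30) for Decr1 to -0.64 (SE 0.28) for Hadha, and that of Cpt1a was 0.18 (SE 0.19). At an unadjusted p under 0.05 there were 7 of 9, against 19.1% of all tested genes. The count of calls was 8 with the 10 libraries as separate samples, against 22.9% of all tested genes. It was 6 with DESeq2, against 10.3% of the genes to which it gave an adjusted p, and 2 when only the compared groups were fitted, against 3.83% of all genes tested in that fit. Hepatocyte markers differed in the same comparison. All 10 had a positive fold change, with a median log2 value of 6.28, and 1, the albumin gene Alb, was called higher (6.19, edgeR adjusted p = 0.0165). They summed to 156 CPM in the Mr1-/- sample and 4.80 to 7.01 CPM in Mr1+/+ samples, in which 3 to 6 of the 10 were at 0, and their part in the result was not tested.

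Under PBS, Mr1-/- against Mr1+/+, edgeR again called 0 of the 9 genes (0.0130% of all tested genes), and 1 of 9, Cpt1a, had an unadjusted p under 0.05, against 8.64% of all tested genes. Cpt1a had 162 and 170.3 CPM in Mr1-/- PBS samples, against 264 and 314 CPM in Mr1+/+ PBS samples, so the ranges stood apart. Its log2 fold change was -0.80 (SE 0.17, unadjusted p = 0.00147, edgeR adjusted p = 0.566). DESeq2 called it with an adjusted p of 0.00129, in a fit that called 1.41% of the genes to which it gave an adjusted p. EdgeR called it without the summed Mr1+/+ PBS replicates 1 and 2 (log2 fold change -0.92, adjusted p = 0.0246), a fit that called 4.33% of all tested genes. The only Mr1+/+ PBS sample in that fit is replicate 3, with its high pancreatic and intestinal sums, and it is assumed to vary like the remaining groups. The other 8 fold changes ran from -0.25 for Acadvl to 0.36 for Acadm. Of the 10 hepatocyte markers, 7 had a positive fold change (median log2 value 1.55) and 1, Alb, was called higher (8.05, edgeR adjusted p = 0.0154). They summed to 95.2 and 156 CPM in Mr1-/- PBS samples, against 1.94 and 251 CPM in Mr1+/+ PBS samples. The 251 CPM belonged to replicate 3, the sample with the high intestinal sum, and Apoa1 gave 141 CPM of it and Apob 93.7 CPM. Alb was at 0.215 to 0.491 CPM in the Mr1+/+ PBS samples and at 64.1 to 104.9 CPM in Mr1-/- PBS. The part of hepatocyte markers in the result was not tested. The comparisons within and between genotypes share samples, so their Cpt1a values are not independent of each other.

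Over the 8 samples, the log2 CPM of the 8 tested genes other than Cpt1a had Pearson's r of 0.767 to 0.992 with one another. Cpt1a had r of -0.30 to 0.21 with these 8 genes. These are descriptions over 8 samples that share groups and scaling. Among tested genes of at least 5 CPM on average, genes most similar to Cpt1a included Osbpl2 (r = 0.948) and Slc43a2 (r = 0.945). The most similar to the mean of the other 8 were Dhrs3 (r = 0.997), Slc25a17 (r = 0.993) and Pccb (r = 0.992).

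Per kilobase of exon (union of exons in GENCODE M21), the level over the 8 samples was highest for Acadl, with a median of 65.8 CPM per kb and a range of 55.7 to 148. Acadm followed at 39.5 CPM per kb, then Hadha at 29.6, Cpt2 at 29.3, Cpt1a at 28.6, Acadvl at 22.7, Hadhb at 21.0, Decr1 at 17.97 and Echs1 at 12.7 CPM per kb, with Cpt1b last at 0.135. Neighbours in this order had overlapping ranges over the samples, except Echs1 and Cpt1b. Within samples, Acadl exceeded Acadm in 8 of 8 and Decr1 exceeded Echs1 in 8 of 8, while Hadhb exceeded Decr1 in 4 of 8. The exon unions are 2005 bases for Acadl, 3913 for Acadm, 3879 for Decr1 and 8286 for Echs1. Before division by length, the CPM of Echs1 was above that of Decr1 in every sample. The CPM of Acadm was above that of Acadl in all but the summed Mr1+/+ PBS pair. In Mr1+/+ PD fluid samples Cpt1a averaged 27.4 CPM per kb, below Decr1 at 38.8, and in Mr1+/+ PBS samples Cpt1a averaged 37.9 and Decr1 14.1 CPM per kb. The union of exons includes rare long transcripts, so the per-length level of a gene with many isoforms can be understated.

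The rest of the pathway in Mr1+/+ mice given PD fluid, against PBS, was described by lists of neighbouring functions. In this comparison 8.49% of all tested genes were called higher and 6.37% lower. Of 21 other mitochondrial beta-oxidation genes, edgeR called 8 higher and 0 lower. Their median log2 fold change was 0.71, and all 21 were above 0, as were 7091 of the 15385 tested genes. The list is broad and holds genes that are not enzymes of the cycle, such as Acacb and Slc22a5. Etfb was near the floor, with means of 0.812 CPM in PD fluid and 0.479 CPM in PBS samples. Among the called genes, Acsl1, which activates long-chain fatty acids to acyl-CoA, rose by 1.39 (SE 0.24, edgeR adjusted p = 0.0142) on the log2 scale. Its level was 1231 ± 234 CPM (SD, n = 3) in PD fluid and 471 ± 74.9 CPM (SD, n = 2) in PBS samples. The carnitine acetyltransferase Crat rose by 1.23, the isomerase Eci1 by 1.19 and the dehydrogenase Acadsb by 1.17. Of 14 peroxisomal beta-oxidation genes, 4 were called higher and 0 lower (median 0.35): the thiolase Acaa1b by 1.64, the peroxisome division factor Pex11a by 1.22, the lipid carrier Scp2 by 1.19 and the multifunctional enzyme Hsd17b4 by 0.97.

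The citrate cycle, which takes up the acetyl-CoA, had 1 of 15 genes called higher and 0 lower (median 0.28). All 15 of its fold changes were above 0 as well. The share of all tested genes called higher was 8.49%. The called gene was Idh3a of the isocitrate dehydrogenase, by 0.63 (SE 0.17, edgeR adjusted p = 0.0408). Of 9 genes of the mitochondrial outer membrane and import, edgeR called 0 and DESeq2 0, with 0 at an unadjusted p under 0.05 (median 0.11). The smallest p belonged to the chaperonin Hspd1 (0.44, SE 0.21, adjusted p = 0.179) and the translocase subunit Timm23 (0.32, SE 0.17, adjusted p = 0.222). Of 5 ketone body enzymes, 1 was called higher and 0 lower (median 0.18), the thiolase Acat1 by 0.82 (SE 0.13, edgeR adjusted p = 0.0130). The difference between these lists and the 10 genes was not tested.

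Among 12 regulators of the pathway 2 were called higher and 0 lower, against 8.49% of all tested genes called higher. Their median log2 fold change was -0.23. Pparg, the nuclear receptor of fat cells, had 141 ± 17.9 CPM in Mr1+/+ PD fluid (SD, n = 3) and 46.0 ± 27.8 CPM in Mr1+/+ PBS (SD, n = 2), a log2 fold change of 1.62 (SE 0.38, edgeR adjusted p = 0.0354). The transcription factor Klf15 had 87.7 ± 1.03 CPM in PD fluid (SD, n = 3) and 37.4 ± 10.8 CPM in PBS (SD, n = 2), a log2 fold change of 1.24 (SE 0.19, edgeR adjusted p = 0.0124). Ppara, the receptor best known for driving fatty acid oxidation in liver, was low, at 6.44 ± 4.24 CPM in PD fluid (SD, n = 3) and 7.95 ± 6.72 CPM in PBS (SD, n = 2). Its log2 fold change was -0.29 (SE 0.68, edgeR adjusted p = 0.792), and that of the coactivator gene Ppargc1a was -0.54 (SE 0.45, edgeR adjusted p = 0.427).

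Of 12 PPAR target genes outside beta-oxidation, 8 were called higher and 0 lower, against 8.49% of all tested genes called higher. Their median was 1.64. The fatty acid carrier Fabp4 rose by 1.89, the lipid droplet protein Plin5 by 1.79, the lipase Lpl by 1.74 and the lipase inhibitor Angptl4 by 1.73. Pdk4, the kinase that shuts pyruvate out of the citrate cycle, had 206 ± 6.37 CPM in Mr1+/+ PD fluid (SD, n = 3) and 86.2 ± 42.8 CPM in Mr1+/+ PBS (SD, n = 2), a log2 fold change of 1.26 (SE 0.28, edgeR adjusted p = 0.0277). Ucp3, a mitochondrial carrier, rose by 1.61 (SE 0.34, edgeR adjusted p = 0.0253). In Mr1-/- the log2 fold change of Pdk4 was -0.35 (SE 0.37) and that of Ucp3 -0.47 (SE 0.44), both with an edgeR adjusted p of 1. Without Mr1+/+ PD fluid replicate 3 each of these lists, adipocyte markers included, had 0 calls, in a fit that called 0% of all tested genes. Without replicate 2 of that group the other mitochondrial beta-oxidation genes and the PPAR targets had 0 calls, against 2.21% of all tested genes.

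**Figure D4:**
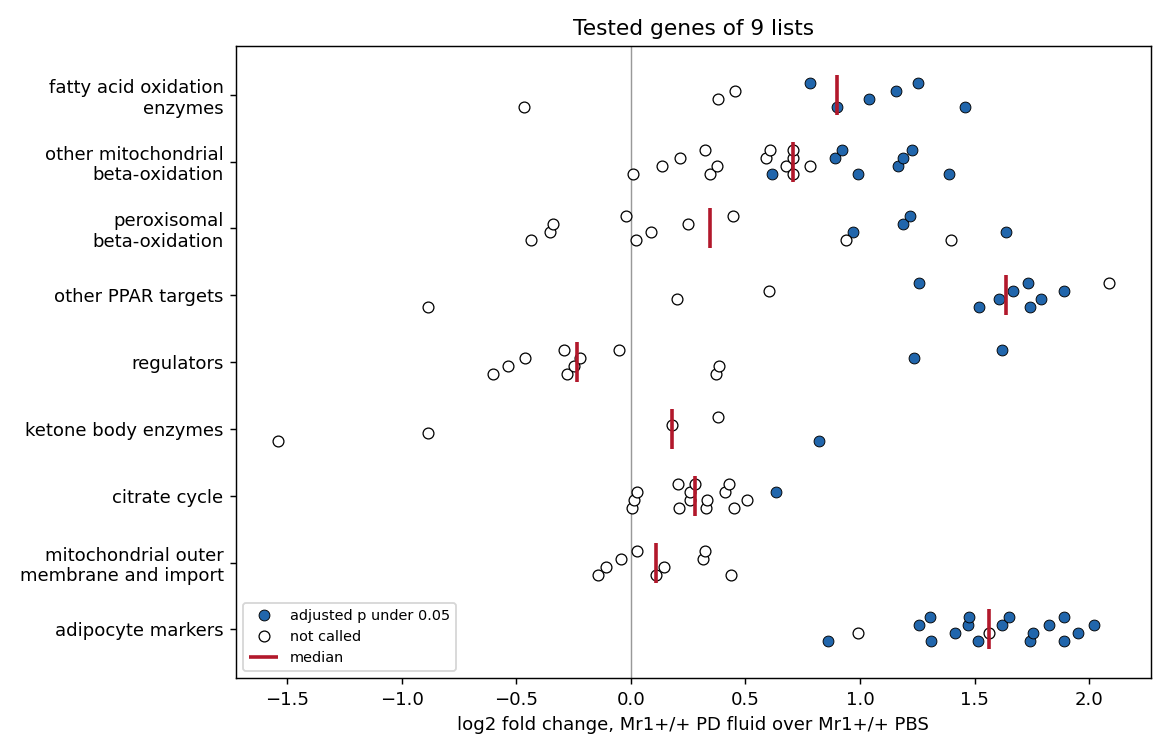
Log2 fold change of each tested gene (points) with PD fluid against PBS in Mr1+/+ mice (x axis), by gene list (rows), filled at an edgeR adjusted p under 0.05, with the list median as a red bar. Of the 9 lists drawn, adipocyte markers (17 of 19 called) and PPAR targets (8 of 12) have the highest medians, followed by the 10 genes (6 of 9 tested) and the other mitochondrial beta-oxidation genes (8 of 21). Of all tested genes, 8.49% were called higher.

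Adipocyte markers moved with these genes. Of 19 markers, edgeR called 17 higher and 0 lower in Mr1+/+ PD fluid against PBS, against 8.49% of all tested genes called higher. Their median was 1.56, led by Retn (2.02), Thrsp (1.95), Cfd (1.89) and Fabp4 (1.89). Fabp4, Lpl and Pparg stand in the lists above as well. The summed CPM of the 19 markers was 13024 in Mr1-/- PD fluid, 10462 to 14993 in Mr1-/- PBS, 22507 to 32206 in Mr1+/+ PD fluid and 7910 to 9734 in Mr1+/+ PBS, and 0 of the 19 were at 0. The summed CPM of the 10 genes was 1139 in Mr1-/- PD fluid, 1094 and 1097 in Mr1-/- PBS, 1488, 2007 and 2108 in Mr1+/+ PD fluid and 1062 and 1342 in Mr1+/+ PBS. The ratio of these sums was 0.0874 in Mr1-/- PD fluid, 0.0730 and 0.105 in Mr1-/- PBS, 0.0661, 0.0718 and 0.0655 in Mr1+/+ PD fluid and 0.134 and 0.138 in Mr1+/+ PBS. The markers thus differed by a larger factor than the 10 genes did. With the adipocyte marker score as a covariate, 0 of the 9 genes and 0.338% of all tested genes were called and their median log2 fold change was -0.54. All 3 Mr1+/+ PD fluid samples had a higher score than any of the 5 remaining samples, so PD fluid in Mr1+/+ and the marker level cannot be told apart.

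Other cell type markers also differed in the same comparison, in which 8.49% of all tested genes were called higher and 6.37% lower. Of 8 fibroblast markers 7 were called higher, with sums of 3960 to 5194 CPM in Mr1+/+ PD fluid and 1419 to 1730 CPM in Mr1+/+ PBS. Of 7 endothelial markers 5 were called higher, with sums of 1501 to 1786 CPM in PD fluid and 989.5 to 1031 CPM in PBS. Of 8 macrophage markers 4 were called higher, with sums of 1123 to 1363 CPM in PD fluid and 673 to 898 CPM in PBS. Of 6 erythroid markers 5 were tested and 3 called higher, with sums of 84.7 to 239.6 CPM in PD fluid and 17.96 to 35.7 CPM in PBS. Of 9 B cell markers 9 were called lower, with sums of 1188 to 1322 CPM in PD fluid and 2114 to 3336 CPM in PBS. Of 19 skeletal muscle markers 13 were tested and 1, Myl1, was called higher, with sums of 47.7 to 64.0 CPM in PD fluid and 60.3 to 70.7 CPM in PBS. Of 9 brown and beige fat markers 6 were tested and 1, Cox8b, was called higher, at 3.02 ± 1.87 CPM in PD fluid (SD, n = 3) and 0.465 ± 0.136 CPM in PBS (SD, n = 2). With the skeletal muscle score as a covariate 4 of the 9 genes were called, Acadm, Acadl, Decr1 and Echs1, against 6.02% of all tested genes. The part of fibroblast, endothelial, macrophage, erythroid and B cell levels in these results was not tested.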

How the data were processed

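RNA of 10 peritoneum libraries was measured. Per the labels' protocols, mRNA was captured on poly-T beads and primed at random, and neither strand marking nor molecular identifiers are named. The authors deposited raw read counts by gene symbol on build mm10, as named in the submitters' processing notes. No source used here names the aligner or the counter. Rows sharing a symbol were summed (21899 rows, 21877 symbols). Libraries of a group with a chi-square per gene under 5 (genes with at least 10 counts in both together) were summed, leaving 8 samples. Genes passing filterByExpr by group (15385) were tested with edgeR 4.0.16 (R 4.3.3): TMM, robust quasi-likelihood F tests on 4 group means, 5 contrasts, 4 residual degrees of freedom, Benjamini-Hochberg adjusted p under 0.05. Standard errors and 95% intervals derive from the F statistic and cover single genes. The test was tried on counts simulated with the spread estimated from these samples and changes placed only in Mr1+/+ PD fluid. That trial covered PD fluid against PBS in Mr1+/+ alone, and its outcome is not given here. Alternatives were 10 separate libraries, a replicate block, RLE factors, no filter, DESeq2 1.42.0, only the compared groups, marker scores as covariates (mean log2 CPM, prior count 2) and leaving out libraries. The genes, lists and tests were chosen with earlier results of these data known. For the lists of neighbouring functions and the adipocyte markers, up to 4 called genes with the largest change are named. With none called, the 2 with the smallest p are named. Ppara, Ppargc1a, Pdk4, Ucp1 and Ucp3 are named whatever their result. The other cell type lists did not follow this rule. The genes most similar in pattern are named by Pearson's r, and one that this rule takes is not reported here. How reads matching several places were counted is likewise not stated.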

Additional observations from a re-analysis of the deposited data

How the results depend on the processing

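For PD fluid against PBS in Mr1+/+ (6 of 9 genes called), each count is given with the share of all tested genes called. The count was 8 with 10 separate libraries (37.5%), 6 with RLE factors (15.2%), 6 without a filter (12.9%) and 7 with DESeq2 (24.6%). It was 5 with only the compared groups (17.4%), 4 with the muscle score (6.02%) and 0 with the adipocyte score (0.338%). The 8 and the 7 include Cpt1a, called lower. When a library was left out the count was 0 to 7, with 0% without Mr1+/+ PD fluid replicate 3 and 14% without replicate 1. The cause of the loss without Mr1+/+ PD fluid replicate 3 or 2 was not tested. For Mr1-/- against Mr1+/+ under PBS (0 called), the count was 1 with DESeq2, against 1.41% of the genes given an adjusted p. The fit without the summed Mr1+/+ PBS pair is described above, and the count was 0 when any single library was left out. Under PD fluid (0 called), it was 8 with 10 separate libraries, 6 with DESeq2 and 2 with only the compared groups. For the interaction (0 called), it was 6 with 10 separate libraries and 5 with DESeq2. For PD fluid in Mr1-/- it was 0 in each alternative run. The labels do not say whether the replicate numbers pair the samples. Same-numbered libraries' deviations from their group means correlated at -0.148 to 0.149. These values cannot settle it, because the deviations in a group of 2 libraries mirror each other. With a replicate block over 10 separate libraries, 8 genes were called for PD fluid in Mr1+/+, 7 for genotype under PD fluid and 7 for the interaction. The shares of all tested genes were 37.4%, 16.4% and 12.9%, and Cpt2 under PBS reversed to 0.17. The list counts were rerun under the same alternatives, a choice made after seeing the data.

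With the adipocyte score, log2 fold changes reversed for PD fluid in Mr1+/+ (Cpt2 -0.67, Acadm -0.56, Acadl -0.062, Acadvl -0.56, Hadha -0.54, Decr1 -0.26, Echs1 -0.24), for PD fluid in Mr1-/- (Cpt2 -0.11, Decr1 -0.041), for genotype under PBS (Acadm -0.12, Acadl -0.17, Hadhb -0.12, Decr1 -0.22, Echs1 -0.15), for genotype under PD fluid (Acadm 0.20) and for the interaction (Cpt2 0.56, Acadm 0.32, Acadvl 0.43, Hadha 0.42, Decr1 0.22). With the muscle score, values near 0 for PD fluid in Mr1-/- reversed (Acadm 0.13, Acadl 0.11, Acadvl 0.067, Hadha 0.058, Hadhb 0.0097, Echs1 0.0018), as did Acadl without a filter (0.0048). Leaving out a library gave, for PD fluid in Mr1-/-, -0.22 to 0.053 for Acadm, -0.056 to 0.029 for Acadl, -0.11 to 0.044 for Hadha, -0.18 to 0.072 for Hadhb and -0.0059 to 0.22 for Decr1, and, for genotype under PBS, -0.49 to 0.22 for Cpt2 and -0.14 to 0.30 for Hadhb. None of these reversed values was called. Among the 10 genes, Cpt1b was the one that failed the filter on low counts. The lone Mr1-/- PD fluid sample limits every comparison that uses it.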
